A study of Mus musculus with 9 samples.

Results

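The 10 genes described here are Col1a1, Col1a2, Col3a1, Dcn, Lrat, Acta2, Des, Tgfb1, Timp1 and Reln, which mark hepatic stellate cells or take part in liver fibrosis. They were picked by a list of symbols, and all 10 were among the 18148 gene symbols of the deposited table. The table held liver mRNA levels from C57BL/6J mice in 9 libraries, 3 in each of 3 groups dosed by gavage for 8 weeks. Control mice received distilled water. DEHP mice received the plasticizer DEHP, di(2-ethylhexyl) phthalate, at 1500 mg/kg/d with corn oil, and Treatment mice received the same dose and oil plus 70 mg/kg GTP, which are green tea polyphenols. Control mice had no oil, and the study's oil and GTP groups were not analysed here, so effects of the phthalate and of its oil cannot be told apart. The series title asks whether the polyphenols lessen the liver injury caused by the phthalate. The labels give no ages, and whether each library is a separate mouse is not stated either. The p-values below therefore cover the spread among these libraries, which could be technical.

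Stellate cells lie between the hepatocytes and the sinusoidal endothelium. When quiescent they store vitamin A as retinyl esters in fat droplets, and when activated by injury they lose these droplets, take on contractile proteins of smooth muscle and secrete fibrillar collagen. TGF-beta is the best known signal for this change, and matrix that is laid down faster than metalloproteinases remove it forms a scar. In bulk liver, fewer cells of a type and less RNA per cell cannot be told apart.

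Levels are the deposited length-scaled values, of the FPKM or TPM kind, whose library totals ran from 789076 to 863300, and the sequencing depth behind them is unknown. Hepatocyte mRNA was abundant in every library, with Alb (albumin) between 38289 and 55555. Before any result on the members, the Control libraries have to be described, because they were not alike. The fat cell genes Adipoq (adiponectin) and Plin1 (a coat protein of fat droplets) stood at 33.7 and 8.57 in Control replicate 1 and at 61.0 and 14.9 in Control replicate 2, and were listed at 0 in the other 7 libraries. The 15 adipocyte genes summed to 2149 to 4379 in Control, 1097 to 2041 in DEHP and 1295 to 2211 in Treatment libraries, and Lep and Ucp1 were also at 0 outside those 2 libraries. Car3, a carbonic anhydrase, made up most of these sums. Without it the other 14 genes summed to 1087 and 1689 in Control replicates 1 and 2, 28.9 in Control replicate 3, 88.8 to 432 in DEHP and 64.0 to 101.1 in Treatment libraries. The 16 genes of portal fibroblasts and mesothelium summed to 47.8 and 84.4 in Control replicates 1 and 2 and to 10.96 to 25.0 elsewhere. Gsn (gelsolin) made up 32.6 and 61.9 of the sums in Control replicates 1 and 2, and stood at 4.86 to 12.6 elsewhere. The part of these transcripts in the results below was not tested, so the comparisons with Control were repeated with Control replicate 3 as the lone control. With 1 control library fewer genes pass at the same difference. A call lost there does not by itself mean a smaller difference.

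No member passed the test in either direction in any of the 3 comparisons. The test was limma on log2(level + 1), fitted to the 10388 genes with a level of at least 1 in at least 3 libraries, and a gene was called at a Benjamini-Hochberg adjusted p below 0.05. Of the 10 members 9 entered the test, and Timp1 did not because only 1 library reached a level of 1. For DEHP against Control, limma called 0 of 9 members, beside 25.5% of all genes tested (21.6% higher and 3.91% lower). For Treatment against DEHP it called 0 of 9, beside 0.0% of all genes, and for Treatment against Control 0 of 9, beside 10.4% (9.68% higher and 0.76% lower). The split moved with the scaling: 84.7% of the calls for DEHP against Control were higher as deposited, 54.5% after quantile normalization, 63.3% after median centring and 44.7% with equal totals without the Mup genes. For Treatment against Control these shares were 92.7%, 62.9%, 65.2% and 82.1%. Without limma's trend and robust estimates it also called 0 in each comparison, and 0 of 9 members had an unadjusted p below 0.05 in any of them, where 38.0%, 14.7% and 28.7% of all genes had. The smallest unadjusted p was 0.135 for DEHP against Control, 0.0912 for Treatment against DEHP and 0.179 for Treatment against Control. Libraries of the groups overlapped for every member tested in every comparison, where 41.4%, 19.3% and 36.1% of all genes tested had groups that did not overlap, in the same order of comparisons. The median log2 difference over the 9 members was 0.02 for DEHP against Control, beside 0.12 over all genes tested. It was -0.05 beside -0.01 for Treatment against DEHP and 0.0017 beside 0.11 for Treatment against Control. Comparisons that share the Control or the DEHP libraries are not independent of each other and are only set side by side.

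**Figure D1:**
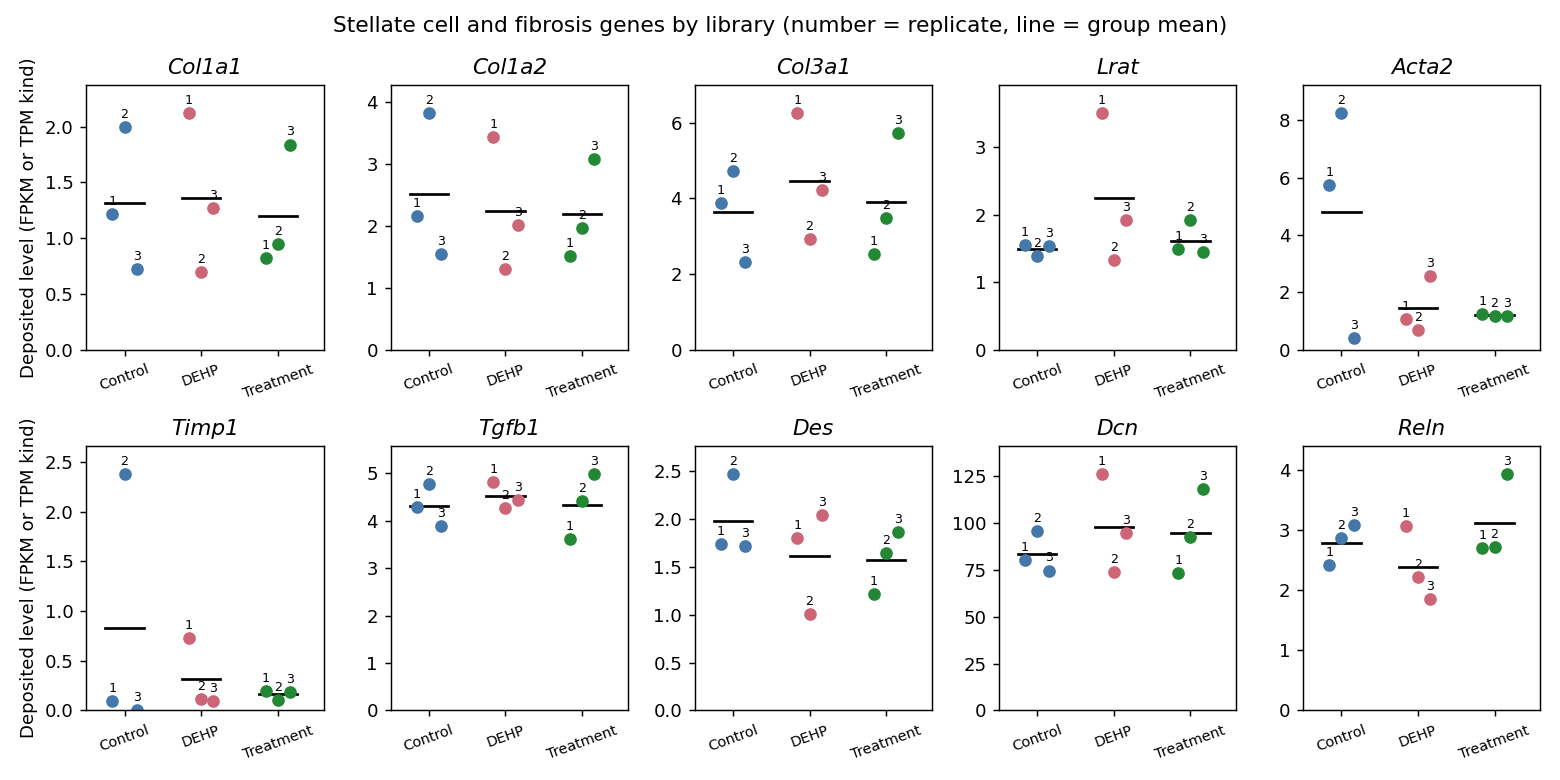
Level of each of the 10 genes (y axes, deposited FPKM- or TPM-like units, each panel on its own scale from 0) in the Control, DEHP and Treatment libraries (x axis), with the replicate number above each point and the group mean as a bar. For every gene the 3 groups overlap, and Control 1 and 2 for Acta2 and Control 2 for Timp1 stand above the other libraries.

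**Figure D2:**
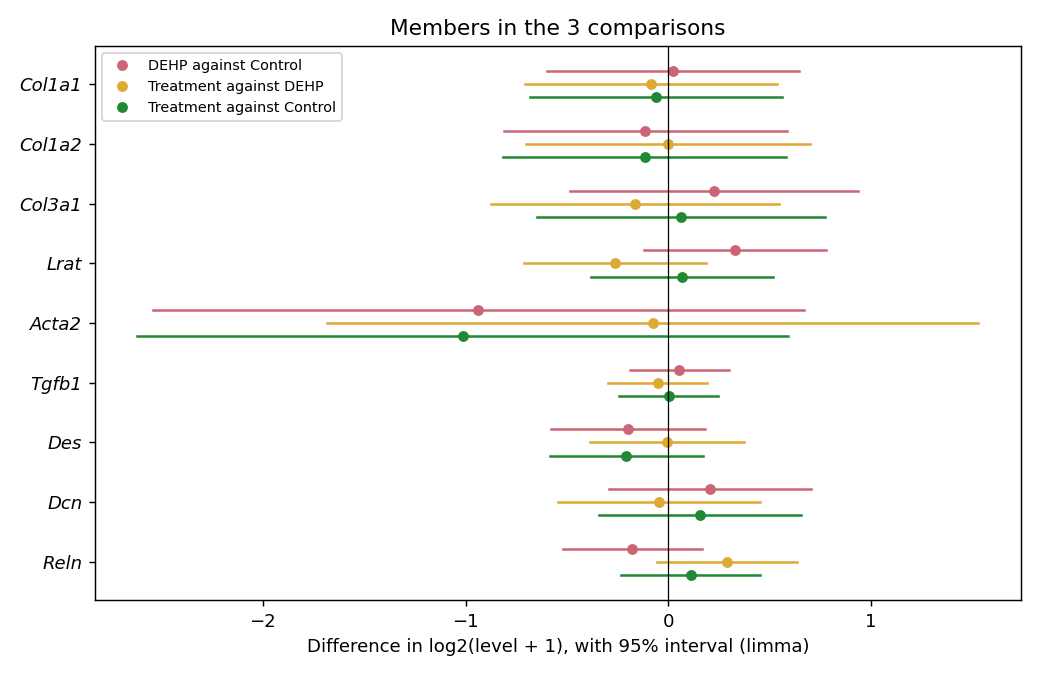
Log2 difference of the 9 tested members in the 3 comparisons (x axis, log2(level + 1) scale; genes on the y axis), with limma 95% confidence intervals as bars and a vertical line at 0. Every interval crosses 0, and those of Acta2 are the widest.

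The fibrillar collagens were transcribed at low levels in all groups. Col1a1, the alpha 1 chain of type I collagen and a main product of activated stellate cells, measured 1.22, 2.00 and 0.72 in Control, 2.12, 0.70 and 1.27 in DEHP, and 0.82, 0.95 and 1.84 in Treatment libraries (replicates 1 to 3). Each group spanned nearly the same range. The means were 1.31 ± 0.645, 1.36 ± 0.715 and 1.20 ± 0.555 (SD, n = 3 each), and the log2 difference for DEHP against Control was 0.024 with a 95% interval from -0.60 to 0.64. That interval corresponds to 0.661 to 1.56 times the Control value of level + 1.

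Col1a2, the partner chain in the type I collagen triple helix, measured 2.16, 3.82 and 1.55 in Control, 3.43, 1.3 and 2.01 in DEHP, and 1.52, 1.97 and 3.08 in Treatment libraries. The highest library of each group was well above the other 2, and the groups overlapped. DEHP differed from Control by -0.11 (interval -0.81 to 0.58) and Treatment from DEHP by -0.0021 (interval -0.70 to 0.70) on the log2 scale.

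Col3a1, the chain of type III collagen that makes up reticular fibers, measured 3.89, 4.72 and 2.33 in Control, 6.25, 2.93 and 4.23 in DEHP, and 2.52, 3.48 and 5.74 in Treatment libraries. DEHP replicate 1 and Treatment replicate 3 were above every Control library, and the other libraries of their groups lay within the Control range. The log2 difference for DEHP against Control was 0.23 (interval -0.48 to 0.94), and for Treatment against DEHP -0.16 (interval -0.87 to 0.55).

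Dcn encodes decorin, a small proteoglycan that binds collagen fibrils and TGF-beta. It had the highest level per length of the 10 genes in every library, at 80.3, 95.5 and 74.6 in Control, 126 in replicate 1, 73.6 and 94.5 in DEHP, and 73.2, 92.3 and 117.8 in Treatment libraries. A high, a middle and a low library stood in each group. The log2 difference was 0.20 for DEHP against Control, with an interval from -0.30 to 0.70, and -0.05 for Treatment against DEHP, with an interval from -0.54 to 0.45.

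Within each group these matrix genes were high and low in the same libraries. In order from low to high, the Control replicates ran 3, 1, 2, the DEHP replicates 2, 3, 1 and the Treatment replicates 1, 2, 3 for Col1a1, and Col1a2, Col3a1, Dcn and Tgfb1 had exactly this order. That is 5 of the 9 tested members, Col1a1 included, where 227 of all 10388 tested genes (2.19%) had it. The order was noticed in the values and is a description with no test. It also held for 3 of 10 other collagens (Col4a1, Col6a1 and Col6a2, of basement membrane and microfibrils) and for 6 of 18 matrix glycoproteins, among them Sparc and the laminin chain Lamb1. Among other lists it held for 3 of 21 TGF-beta pathway genes, 2 of 6 small leucine-rich proteoglycans and 1 of 5 portal fibroblast and mesothelium genes. Of the 16 other stellate cell markers only 1, Vim, had it. So did 1 of 12 collagen maturation enzymes, 1 of 10 contractile genes, 1 of 21 retinoid genes and 2 of 17 growth factors and receptors of fibrosis. The 6 metalloproteinases and inhibitors and the 6 reelin signalling genes tested did not have it. It held for none of the 15 endothelial, 13 Kupffer cell, 5 bile duct, 9 adipocyte or 7 hepatocyte genes tested. At a share of 2.19%, lists this short would often hold none. Within Control alone, adipocyte genes such as Adipoq and Fabp4 also ran 3, 1, 2, while Ucp1 and Cox8b were highest in replicate 1. The ratio of Col1a2 to Col1a1 stayed between 1.58 and 2.15 over the 9 libraries and that of Col3a1 to Col1a1 between 2.36 and 4.19, while Col1a1 itself ran from 0.70 to 2.12.

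**Figure D3:**
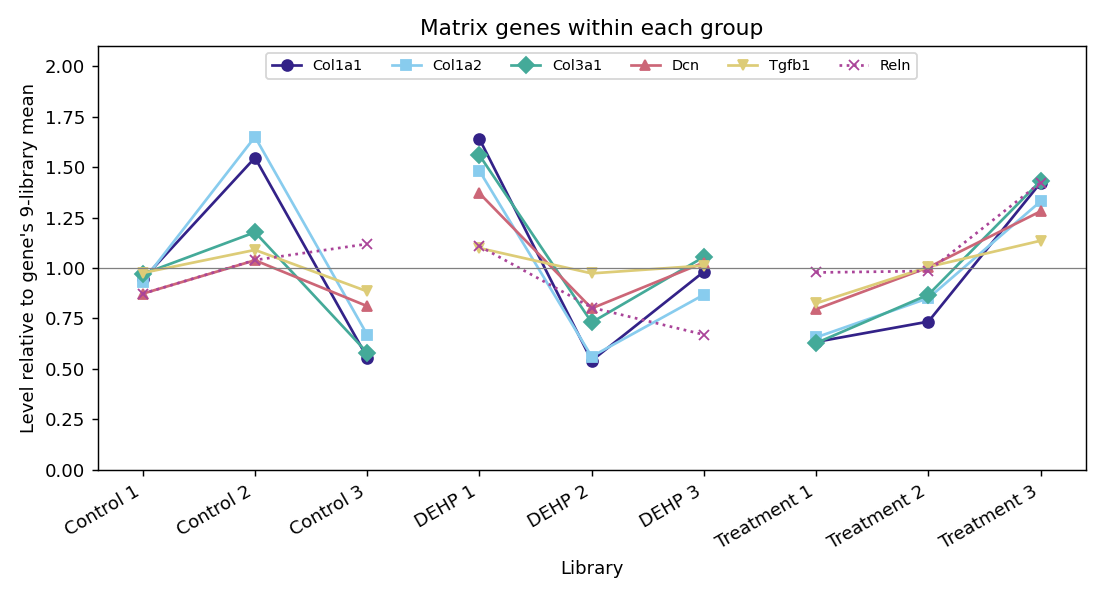
Level of Col1a1, Col1a2, Col3a1, Dcn, Tgfb1 and Reln in each library (x axis) divided by the gene's mean over the 9 libraries (y axis, from 0). The lines only join values of a gene within a group and imply no order of replicates. The 5 solid lines are, within their groups, lowest in Control 3, DEHP 2 and Treatment 1 and highest in Control 2, DEHP 1 and Treatment 3, while Reln, dotted, is at its highest Control value in replicate 3.

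By the root mean square difference of z-scores over the 9 libraries, the tested genes most like Col1a1 were Col1a2 (0.203), App (0.232), the amyloid precursor protein, and Ap2a1 (0.239), an adaptor subunit of clathrin coats. The median over all tested genes was 1.19. App followed the collagens at levels from 13.0 to 23.4.

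Tgfb1, the ligand TGF-beta 1, had the narrowest interval of the 9 tested members. It measured 4.28, 4.78 and 3.88 in Control, 4.82, 4.27 and 4.44 in DEHP, and 3.62, 4.41 and 4.98 in Treatment libraries. The group means were 4.31 ± 0.451, 4.51 ± 0.282 and 4.34 ± 0.683 (SD, n = 3 each). DEHP against Control gave a log2 difference of 0.055 with an interval from -0.19 to 0.30, or 0.876 to 1.23 times on the level + 1 scale. Of the 21 tested genes of the TGF-beta pathway, 1 rose and 2 fell under DEHP, where 21.6% of all genes tested rose and 3.91% fell. Tgif1, a corepressor of SMAD signalling, rose from 6.03, 7.59 and 7.99 to 9.93, 10.1 and 10.5 (adjusted p = 0.0189), and was also higher in Treatment than in Control (adjusted p = 0.0384). Smad6, an inhibitory SMAD, fell by 0.37 on the log2 scale (adjusted p = 0.0198), and Ltbp4, which tethers latent TGF-beta in the matrix, fell by 0.37 (adjusted p = 0.0378). After quantile normalization 0 rose and 4 fell, among them Smad6 and Ltbp4 again, and against the lone Control replicate 3 none passed. Over 19 alternatives the calls of Tgif1, Smad6 and Ltbp4 were lost 6, 4 and 10 times. Among these, Tgif1 was lost without Control replicate 1 or DEHP replicate 3, and Smad6 without Control replicate 3 or DEHP replicates 2 or 3, with adjusted p up to 0.0740 and 0.0721.

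Timp1, an inhibitor of matrix metalloproteinases, was near the lower end of what the table resolves. It measured 0.10, 2.38 and 0 in Control, 0.73, 0.12 and 0.10 in DEHP, and 0.20, 0.11 and 0.19 in Treatment libraries. A single library, Control replicate 2, carried most of the signal, and in 4 libraries the level was 0.10 to 0.12, with 0.19 to 0.20 in another 2. With no filter on low values the log2 difference for DEHP against Control was -0.27 (interval -1.20 to 0.67, limma adjusted p = 0.735). Control replicate 2 was also the highest library for Pcolce, an enhancer of collagen processing, at 22.5 against 4.69 to 8.70 in the other 8. Among the 6 tested metalloproteinases and inhibitors, Mmp19 rose under DEHP by 0.29 on the log2 scale (adjusted p = 0.0485), a call lost in 16 of 19 alternative settings.

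Lrat esterifies retinol for storage and is the retinoid enzyme typical of quiescent stellate cells. It measured 1.55, 1.39 and 1.54 in Control, 3.50, 1.33 and 1.92 in DEHP, and 1.49, 1.92 and 1.44 in Treatment libraries. The Control libraries were tightly grouped, and DEHP replicate 1 stood apart from all other libraries. DEHP differed from Control by 0.33 on the log2 scale (interval -0.12 to 0.78, limma adjusted p = 0.267) and by 0.066 without DEHP replicate 1. Without DEHP replicate 2, the lowest of that group, the difference was 0.54 (adjusted p = 0.0520). Treatment was lower than DEHP by a log2 difference of -0.26 (interval -0.71 to 0.19). The genes most like Lrat over the 9 libraries were Ccdc166 (0.315), Pm20d2 (0.328) and Itih3 (0.330), with a median of 1.14 over all tested genes, and each was also highest in DEHP replicate 1.

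Among the other retinoid genes, 21 of retinoid storage and use were tested. Of these, 7 rose and 0 fell under DEHP, and 5 rose and 0 fell in Treatment against Control. Over all genes tested, 21.6% rose and 3.91% fell under DEHP, and 9.68% and 0.76% in Treatment against Control. Rdh16, a retinol dehydrogenase, went from 24.8, 23.8 and 24.3 in Control to 107.8, 82.7 and 93.8 in DEHP libraries, a log2 difference of 1.91 ± 0.16 (SE, adjusted p = 0.000216), and stood at 59.5, 95.6 and 63.8 in Treatment libraries. Aldh1a1, which oxidizes retinal to retinoic acid, lay between 555 and 658 in Control and between 1215 and 1462 in DEHP libraries, a log2 difference of 1.09 ± 0.12 (SE, adjusted p = 0.000419). Rdh11, a retinal reductase, rose by 1.37 ± 0.18 (SE, adjusted p = 0.0012). These 3 calls for DEHP held in all 19 alternative settings. The split of the list depended on the scaling, with 7 higher and 2 lower after quantile normalization, 5 and 2 after median centring and 5 and 3 with equal totals without the Mup genes. In Treatment against Control 3 were higher under each of these 3 scalings, and 0 against the lone Control replicate 3. The other 4 that rose were Rdh10, Dhrs3, Cyp26a1 and Ces1g. Aldh1a1 and the Rdh genes are also expressed in hepatocytes, which make up most of this tissue.

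Des encodes desmin, the intermediate filament long used to stain rodent stellate cells. It measured 1.74, 2.47 and 1.72 in Control, 1.80, 1.01 and 2.04 in DEHP, and 1.22, 1.65 and 1.86 in Treatment libraries. The groups overlapped, and the log2 difference was -0.20 for DEHP against Control (interval -0.58 to 0.18) and -0.0080 for Treatment against DEHP (interval -0.39 to 0.37). Of the 7 other intermediate filament genes tested, 3 rose and 0 fell under DEHP, where 21.6% of all genes tested rose and 3.91% fell. Krt8 and Krt18, the keratin pair of hepatocytes and bile duct cells, rose together. Krt8 lay between 110.5 and 125.5 in Control and between 198.7 and 241.1 in DEHP libraries, and Krt18 between 103.8 and 128.1 and between 204.9 and 244.1. Their log2 differences were 0.91 and 0.92 (SE 0.11 each, adjusted p = 0.000665 and 0.000662), and in Treatment against Control 0.72 and 0.68 (adjusted p = 0.00731 and 0.0101). Lmna, the nuclear lamin A/C gene, rose by 0.49 (adjusted p = 0.0123), a call lost with equal totals without the Mup genes and against the lone Control replicate 3 (adjusted p = 0.0932 and 0.0826).

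Reln encodes reelin, a secreted glycoprotein that in liver is made by stellate cells. It measured 2.41, 2.87 and 3.09 in Control, 3.06, 2.22 and 1.85 in DEHP, and 2.70, 2.72 and 3.93 in Treatment libraries. The Treatment libraries were above DEHP replicates 2 and 3 but not all above replicate 1. Treatment exceeded DEHP by a log2 difference of 0.29 (interval -0.06 to 0.63, limma adjusted p = 0.429), which was the smallest unadjusted p of any member in that comparison. Among the 6 tested genes of reelin signalling, Vldlr, a receptor for reelin and for lipoproteins, rose under DEHP from 0.44, 0.84 and 0.20 to 3.41, 1.73 and 1.55 (log2 difference 1.09 ± 0.24 SE, adjusted p = 0.0106). Its levels in Treatment libraries were 1.26, 2.31 and 2.16, and Treatment was above Control (adjusted p = 0.0385). Against the lone Control replicate 3 the Vldlr difference for DEHP was 1.38 (adjusted p = 0.0530) and no longer passed.

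Acta2, alpha smooth muscle actin, is the standard marker of activated stellate cells and is also made by vascular smooth muscle. Its promoter contains CArG boxes, the element bound by serum response factor that many contractile genes share. They are shown because Acta2 is a textbook example of a gene with this element. Sequences are from RefSeq promoters of GRCm38.p6, which is not the build named for the deposited values. Capitals mark the CArG box, and each Acta2 box has 1 G or C in its A/T core.
Acta2, chr19:34255438-34255467, minus strand: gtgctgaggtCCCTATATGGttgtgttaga
Acta2, chr19:34255388-34255417, minus strand: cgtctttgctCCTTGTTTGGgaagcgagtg
Myl9, chr2:156775293-156775322, plus strand: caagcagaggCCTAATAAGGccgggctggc
The Myl9 box (myosin light chain 9) is exact, with CC, a core of only A and T, and GG. The pattern is symmetric, so a search of a strand covers both. In windows from 250 bases before to 50 after the start, an exact box was found for 1.81% of 27025 genes and a box with at most 1 mismatch in the core for 11.3%. Of the other contractile genes described below, Vcl had an exact box in its window. The windows of Cnn1, Lmod1, Synpo2, Tpm1 and Tpm2 held none with up to 1 mismatch. Tagln, Myh11 and Actg2 had no window among these promoters and were not searched. A match is a description of letters and not of binding.

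Acta2 measured 5.76, 8.25 and 0.41 in Control, 1.07, 0.70 and 2.56 in DEHP, and 1.26, 1.19 and 1.16 in Treatment libraries. Control replicates 1 and 2 were the highest of all 9 libraries and Control replicate 3 the lowest, so the Control group enclosed both others. The Treatment libraries differed by only 0.0513 (SD, mean 1.20, n = 3), against an SD of 4.01 around a mean of 4.81 in Control. DEHP against Control gave a log2 difference of -0.94 (interval -2.54 to 0.67, limma adjusted p = 0.362) and Treatment against Control -1.01 (adjusted p = 0.372). Treatment against DEHP gave -0.08 (interval -1.68 to 1.53).

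The Acta2 result rested on which Control libraries were used. Without Control replicate 3, Acta2 was called lower in DEHP (-1.77, adjusted p = 0.00686) and in Treatment (-1.84, adjusted p = 0.0201). With replicate 3 as the lone control the differences turned positive, at 0.72 (adjusted p = 0.233) and 0.64 (adjusted p = 0.345), and the median over the 9 members moved to 0.30 for DEHP against Control, beside 0.18 over all genes tested. On that footing Col1a1 differed by 0.41, Col1a2 by 0.30, Col3a1 by 0.67, Dcn by 0.36, Lrat by 0.30, Tgfb1 by 0.17, Des by -0.078 and Reln by -0.29 for DEHP against Control, and none was called (adjusted p from 0.338 for Col3a1 to 0.869 for Des). The 2 libraries high in Acta2 are those that held the fat cell transcripts. Acta2 was the only member higher in both of them than in all other libraries, as were 896 of 16936 genes (5.29%). Of the 17 other contractile genes 7 were too: Tagln, Cnn1, Myl9, Myh11, Actg2, Lmod1 and Synpo2. Tagln, an actin-binding protein of smooth muscle, stood at 8.28 and 9.25 there and at 2.81 to 5.54 elsewhere. Of the portal fibroblast and mesothelium genes 8 of 16 had this profile: Thy1, Cd34, Clec3b, Pi16, Gsn, Eln, Fbln2 and Dpt. The mesothelial genes Msln, Upk3b, Upk1b and Wt1 did not have it. Gsn stood at 32.6 and 61.9 against at most 12.6. Of adipocyte genes 13 of 15 had the profile. None of the 15 endothelial, 13 Kupffer cell or 8 bile duct genes had this profile. It was seen in 8 of 28 matrix glycoproteins, 4 of 31 TGF-beta pathway genes and 3 of 22 metalloproteinases and inhibitors. Of the other stellate cell markers 2 of 23, Rgs5 and Cspg4, had the profile. The 17 other collagens, 10 intermediate filament genes and 8 reelin signalling genes did not have it. In addition, 3 of 7 red blood cell genes (Hba-a1, Hbb-bs and Alas2) and 2 of 7 hepatocyte genes (Alb and Ahsg) had it.

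**Figure D4:**
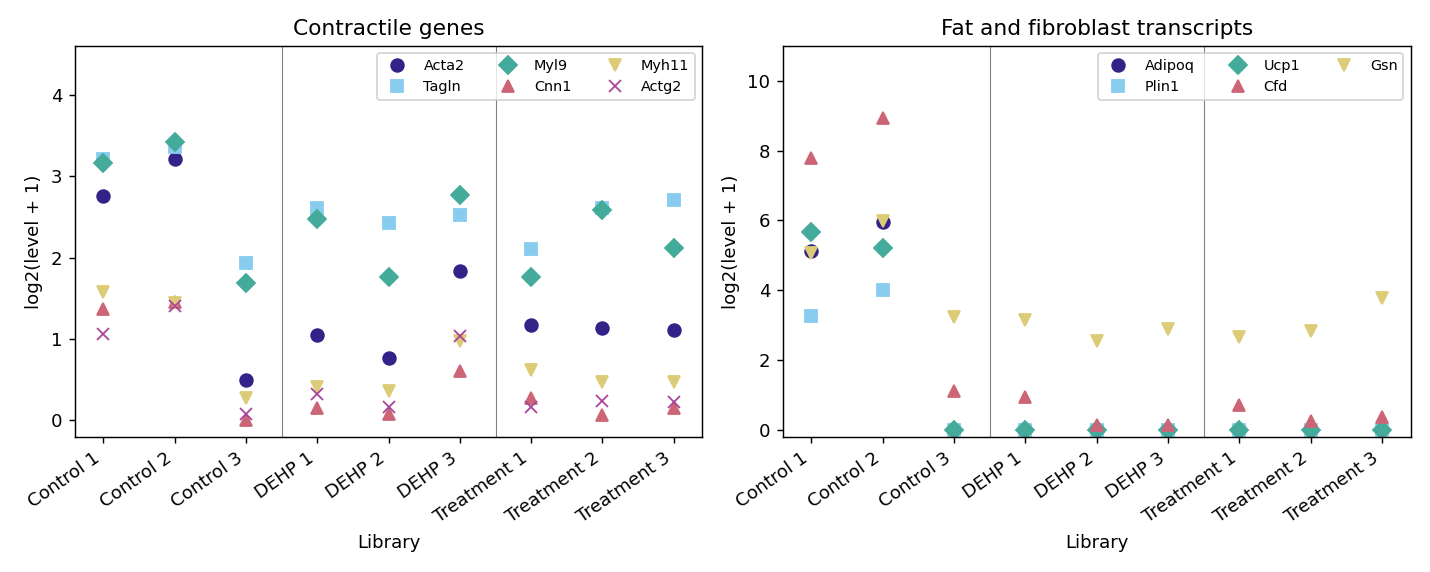
Levels on a log2(level + 1) scale (y axes) of 6 contractile genes (left) and of 4 fat cell genes and Gsn (right) in the 9 libraries (x axes). Control 1 and Control 2 are highest in both panels, and Adipoq, Plin1 and Ucp1 are at 0 in the other 7 libraries.

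Reads of Acta2 could be shared with related actins, since the sources used here do not say how such reads were assigned. Its transcript was 84.3% identical to that of Actg2, the enteric smooth muscle actin, over 1122 aligned bases, with a longest identical run of 29 bases. Actg2 was much lower than Acta2 in Control, at 1.09, 1.65 and 0.06, and had the same low library.

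Of 10 contractile genes tested, 3 rose and 0 fell under DEHP, where 21.6% of all genes tested rose and 3.91% fell. After quantile normalization, median centring or equal totals without the Mup genes 2 rose and 0 fell. Tpm1 (tropomyosin 1) rose from 16.2, 21.4 and 16.3 to 38.4, 28.4 and 31.5 (log2 difference 0.83 ± 0.15 SE, adjusted p = 0.00382). Vcl (vinculin, of cell adhesions) rose by 0.59 ± 0.10 (SE, adjusted p = 0.0024), and both calls held in all 19 alternatives. Tpm2 rose by 0.72 (adjusted p = 0.0331), a call lost in 8 of them. These 3 genes are expressed outside smooth muscle as well. With the lone Control replicate 3 the differences for DEHP were 0.96 for Tpm1, 0.75 for Vcl and 1.22 for Tpm2.

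For other stellate cell and matrix genes, counts of calls are set beside all genes tested, of which 21.6% rose and 3.91% fell under DEHP. Of 16 other stellate cell markers tested, 1 rose under DEHP: Colec10, a collectin, went from 3.14, 3.67 and 3.06 to 5.74, 4.43 and 4.62 (log2 difference 0.46 ± 0.10 SE, adjusted p = 0.00866), and was 4.67 to 4.82 in Treatment libraries (adjusted p = 0.0293 against Control). Against the lone Control replicate 3 the Colec10 call for DEHP was lost, though the difference was 0.54. Of 10 other collagens 1 fell. Col27a1, a fibrillar collagen known from cartilage, went from 5.98, 6.07 and 9.69 in Control to 1.53, 2.16 and 1.60 in DEHP and 2.20, 2.74 and 3.12 in Treatment libraries. Its log2 difference was -1.56 ± 0.17 (SE, adjusted p = 0.000467) for DEHP and -1.14 (adjusted p = 0.00686) for Treatment against Control, and the DEHP call held in all 19 alternatives. Col14a1, a collagen on the surface of fibrils, was higher in Treatment than in Control by 0.72 (adjusted p = 0.0429), a call lost in 12 of 19 alternatives.

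Counts for enzymes that process collagen and for the remaining matrix lists are set beside the same shares, 21.6% higher and 3.91% lower. P4ha1, a collagen prolyl hydroxylase subunit, was the only 1 of 12 maturation enzymes to rise under DEHP (0.47, adjusted p = 0.0385). Of 6 small leucine-rich proteoglycans Omd fell (osteomodulin, -0.68, adjusted p = 0.0397), and of 18 glycoproteins Fn1 (fibronectin, -0.32, adjusted p = 0.0237) and Vtn (vitronectin, -0.24, adjusted p = 0.0371) fell. Hepatocytes make plasma fibronectin and vitronectin. Each of these 4 calls was lost in at least 5 of 19 alternatives, with adjusted p up to 0.110, 0.122, 0.0761 and 0.105 when single libraries were left out, and none passed against the lone Control replicate 3.

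Among 17 tested growth factors and receptors of fibrosis, 2 rose and 3 fell under DEHP, where 21.6% of all genes tested rose and 3.91% fell. After quantile normalization 1 rose and 5 fell, after median centring 2 and 5, with equal totals 2 and 2, and with equal totals without the Mup genes 0 and 5. Fgf1 fell from 35.6, 41.2 and 40.8 to 24.4, 24.5 and 25.9 (-0.63 ± 0.08 SE, adjusted p = 0.000811). Igf1, the growth hormone target secreted by hepatocytes, fell from 73.5, 75.3 and 79.6 to 47.9, 53.6 and 51.9 (-0.57 ± 0.08 SE, adjusted p = 0.00104). Both were also lower in Treatment than in Control (adjusted p = 0.0161 and 0.00935), and both DEHP calls held in all 19 alternatives. Agtr1a, an angiotensin receptor, rose by 0.46 (adjusted p = 0.0169), a call lost in 4 alternatives, among them without Control replicates 1 or 3 (adjusted p up to 0.0709).

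Markers of other cell types are given for reference. Under DEHP, Cd5l was the only call of 13 Kupffer cell genes (0.69, adjusted p = 0.0393), and Lipe, hormone-sensitive lipase, the only call of 9 adipocyte genes (-1.39, adjusted p = 0.0339). Against the lone Control replicate 3, which lacked the fat cell transcripts, Lipe differed by -0.39 (adjusted p = 0.103). Of 7 hepatocyte genes Alb (-0.40, adjusted p = 0.00995) and Ahsg (-0.46, adjusted p = 0.00639) fell and Fgb rose (0.37, adjusted p = 0.0406). The calls of Cd5l, Lipe and Fgb were lost in 12, 10 and 12 of 19 alternatives. Against the lone Control replicate 3 Alb (-0.35, adjusted p = 0.191) and Ahsg (-0.42, adjusted p = 0.138) no longer passed, and Ahsg turned to 0.20 after quantile normalization (adjusted p = 0.210). None of 15 endothelial, 5 bile duct, 5 red blood cell or 5 portal fibroblast and mesothelium genes tested was called. Counted once each, 198 genes of the related lists were tested. Of them, limma called 34 (17.2%) for DEHP against Control, 0 for Treatment against DEHP and 15 (7.58%) for Treatment against Control. Over all genes tested these shares were 25.5%, 0.0% and 10.4%. For Treatment against DEHP, 20 of the 198 had an unadjusted p below 0.05, beside 14.7% of all genes tested. The fit without trend or robust estimates called 0 of the 198 in that comparison as well. Over 19 alternatives the Treatment against Control calls named here were lost 12 times for Tgif1, 10 each for Vldlr and Vcl, 9 for Colec10, 4 for Fgf1, 3 for Rdh11, 2 for Krt18 and once for Krt8, Rdh16, Aldh1a1 and Igf1. With Control replicate 3 as the lone control, Col27a1 was the only call among all related lists for Treatment against Control.

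**Figure D5:**
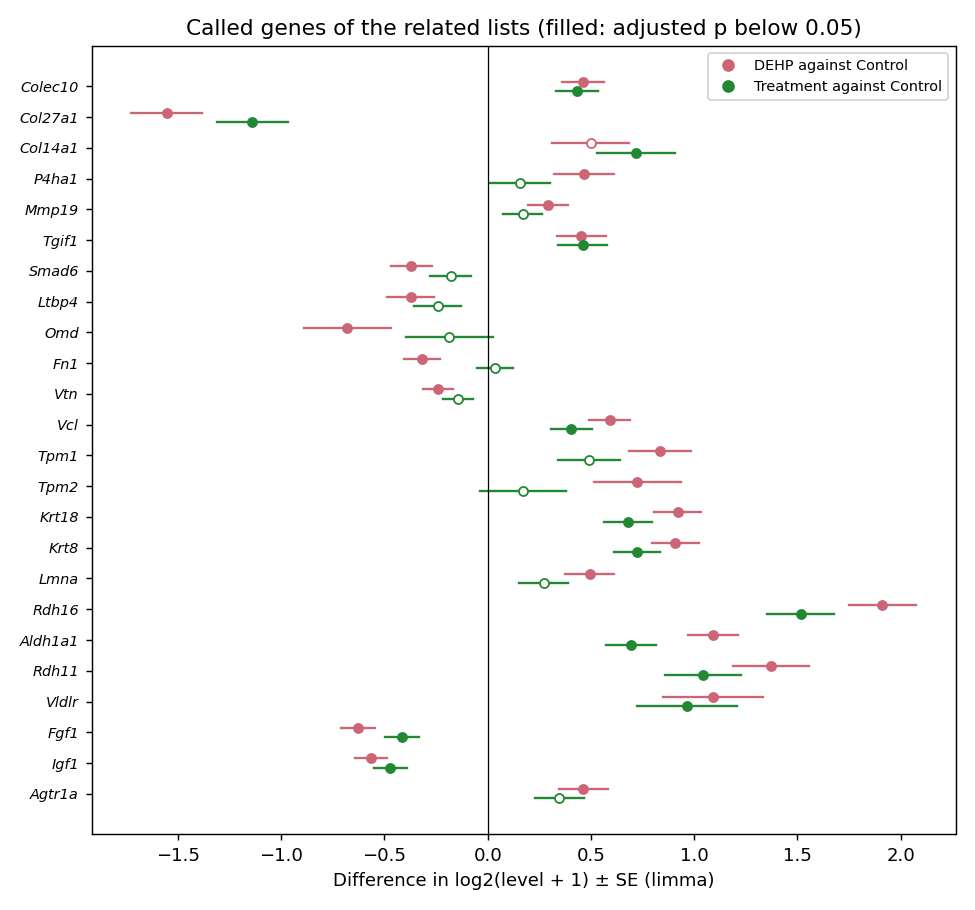
Log2 difference (x axis, log2(level + 1) scale) of the called genes named from the stellate cell, matrix, contractile, retinoid and signalling lists (y axis) for DEHP against Control and Treatment against Control, with filled points for calls at an adjusted p below 0.05 and open points otherwise, and SE as bars. Rdh16 lies farthest to the right and Col27a1 farthest to the left.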

How the data were processed

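Per the labels' protocols, poly(A) RNA was captured with oligo(dT) beads and primed with random hexamers. The submitters' processing notes name mm9, CASAVA 1.7 and limma, without roles. The aligner and the counting tool are not stated in these sources. The authors deposited a signal for each symbol in each library, which by its values is scaled for depth and length (FPKM or TPM). Depth is unknown, so no counting interval is given.

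Levels were tested as log2(value + 1), which understates changes of low genes, with limma 3.58.1 in R 4.3.3 (trend and robust estimates, 9 libraries in 1 model, Benjamini-Hochberg over 10388 genes). The code was tested on simulated data. The 10 members and 19 related lists were chosen with earlier results of these data known. From each list the text names the called genes with the lowest adjusted p, 3 at most. Promoters are from RefSeq (GRCm38.p6), and transcripts were aligned with Biopython 1.88. Alternatives were other scalings, filters, pseudocounts, sample sets and limma settings, a replicate block and leaving out each library.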

Additional observations from a re-analysis of the deposited data

How the results depend on the processing

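Over 19 alternative settings the count of members called stayed at 0 in all 3 comparisons, with 1 exception: without Control replicate 3, Acta2 was called, so that leaving out single libraries gave 0 to 1 for DEHP against Control and for Treatment against Control. Over the same settings all genes called ran from 757 to 2727, 0 to 86 and 10 to 2019 for DEHP against Control, Treatment against DEHP and Treatment against Control. Signs did change, of uncalled members and of the called hepatocyte gene Ahsg. For DEHP against Control, quantile normalization gave Tgfb1 -0.024, Dcn -0.053 and Ahsg 0.20, median centring gave Col1a1 -0.089 and Tgfb1 -0.058, equal totals without the Mup genes gave Col1a1 -0.094, Tgfb1 -0.12 and Dcn -0.011, and the lone Control replicate 3 gave Col1a2 0.30 and Acta2 0.72. For Treatment against DEHP, quantile normalization gave Dcn 0.034, equal totals gave Col1a2 0.050, Tgfb1 0.013, Des 0.040 and Dcn 0.035, equal totals without the Mup genes gave Col1a2 0.081, Tgfb1 0.050, Des 0.067 and Dcn 0.080, and a pseudocount of 0.1 gave Col1a2 0.011 and Des 0.0015. For Treatment against Control, quantile normalization gave Col3a1 -0.014, Tgfb1 -0.089 and Dcn -0.019, median centring gave Col3a1 -0.054, Lrat -0.052, Tgfb1 -0.12 and Reln -0.0072, equal totals without the Mup genes gave Col3a1 -0.0072 and Tgfb1 -0.072, and the lone Control replicate 3 gave Col1a1 0.33, Col1a2 0.29, Acta2 0.64 and Reln -0.0040. Quantile normalization, median centring and equal totals without the Mup genes moved the median of all genes for DEHP against Control from 0.12 to 0.0054, 0.0062 and -0.058. Leaving out single libraries gave for DEHP against Control Col1a1 -0.20 to 0.24, Col1a2 -0.36 to 0.14, Tgfb1 -0.0050 to 0.12 and Acta2 -1.77 to -0.41. For Treatment against DEHP it gave Col1a1 -0.30 to 0.14, Col1a2 -0.22 to 0.25, Col3a1 -0.42 to 0.063, Acta2 -0.30 to 0.23, Tgfb1 -0.14 to 0.047, Des -0.19 to 0.11 and Dcn -0.23 to 0.15. For Treatment against Control it gave Col1a1 -0.26 to 0.14, Col1a2 -0.32 to 0.14, Col3a1 -0.19 to 0.28, Lrat -0.016 to 0.11, Tgfb1 -0.084 to 0.10, Dcn -0.014 to 0.33, Reln -0.027 to 0.18 and Acta2 -1.84 to -0.49. The causes were not tested.

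The labels give all groups replicate numbers 1 to 3. Deviations of same-numbered libraries correlated between -0.26 and 0.17, so the numbers were not taken as pairs. With a replicate block 0 members were called in each comparison, and all genes called were 2271, 0 and 578 for DEHP against Control, Treatment against DEHP and Treatment against Control.

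With 3 libraries a group the intervals of most members are wide, and differences inside an interval cannot be told apart with these data. Timp1 lies near the lower end of what the table resolves, and the depth behind the other low members is unknown. Genes named from the related lists were chosen because they were called, and over the 19 alternatives the 28 calls for DEHP against Control were lost 124 times in all and the 13 for Treatment against Control 66 times.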
